A study of Daphnia magna with 56 samples.

Results

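The 150 transcripts whose level rose most from day 4 to day 8 in unirradiated Daphnia magna are described here across 7 dose rates of gamma radiation on both days. They were chosen by a readout. The count of each transcript was scaled by its library total to CPM, the usual depth-normalized unit of counts, and L was set to log2(CPM + 0.5). The difference A was the mean L of the 4 day 8 controls minus the mean L of the 4 day 4 controls, all at 0 mGy/h. Of 23570 transcript records, 7589 had a mean of at least 5 CPM over the 56 libraries, 491 of these also had an A of at least 1, and the 150 with the highest A are called members below. Because the 8 control libraries chose the members, control values are given as a description. Every test of a transcript below uses the 48 exposed libraries, which took part in the choice through the minimum mean level alone. Only a check for outlying libraries, given near the end, also covers the controls.

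Daphnia magna is a freshwater crustacean used in toxicity testing. The libraries were made from total RNA of whole female wild-type (WT) juveniles, 4 or 8 days old and irradiated with gamma rays for as many days. The dose rates were 0, 0.4, 1, 4, 10, 40 and 100 mGy/h. Animals were kept in M7 medium in plastic beakers, and each combination of dose rate and day was represented by 4 libraries, 14 groups in all. The labels do not state whether the libraries of a group came from separate cultures or how many animals each holds, so the p-values measure the spread between these libraries, part of which may be technical. Age, exposure time and any difference in how the libraries of each day were made change together, and they cannot be told apart. In whole animals, fewer cells of a type and less RNA per cell cannot be told apart either.

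As background, juvenile Daphnia grow through repeated moults, in which a new cuticle is made and the old one shed, and the ovary matures and fills with yolk-bearing eggs towards first reproduction. RNA of a whole animal therefore holds the transcripts of epidermis, gut, fat cells, muscle, nervous system and ovary together. The records carry RefSeq accessions. Of the 150 members, 108 matched a gene symbol in RefSeq's annotation of ASM2063170v1.1 when the version number was ignored, and all of these symbols were LOC numbers without a description. No role is therefore given to any member, and the results are ordered by how the members behaved.

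Library totals lay between 13285376 and 14243541 counts for day 4 and 14032254 and 14986499 counts for day 8, and no pair of libraries of a day agreed within sampling noise (smallest chi-square per degree of freedom 6.85 on day 4 and 24.1 on day 8).

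In the controls that chose them, members were scarce on day 4 and abundant on day 8. Their mean at 0 mGy/h ran from 0 to 40.0 CPM on day 4, with a median over members of 1.14 CPM, and 79 of the 150 reached a mean of 1 CPM. On day 8 the means ran from 10.00 to 2029 CPM, with a median of 92.5 CPM, and all 150 were above 1 CPM. A ran from 3.95 to 9.01 with a median of 5.17 on the log2 scale. All 4 day 8 controls lay above all 4 day 4 controls for 146 members, a result of the choice, against 10.5% of the 9561 transcripts that passed the count filter. At the limit, XM_032932289.1 and XM_032926442.1 were the last members inside with A of 3.95 each, and XM_032932537.1 and XM_032923308.1 were the first outside with 3.94 and 3.92.

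Summed over the 150 members, the share of each library's counts showed how far the rise extended to irradiated animals. In replicates 1 to 4, members took 0.0256, 0.0359, 0.0300 and 0.116% of the counts of the day 4 controls and 3.11, 4.29, 2.03 and 2.20% of the day 8 controls. On day 4 they took 0.844, 0.776, 2.23 and 1.61% in the 0.4 mGy/h group, 0.0228, 0.0237, 1.12 and 0.939% in the 1 mGy/h group and 0.845, 0.824, 0.156 and 1.05% in the 4 mGy/h group. The shares at the higher dose rates of day 4 were 0.351, 0.622, 0.0734 and 1.06% in the 10 mGy/h group, 0.127, 0.0501, 0.112 and 1.21% in the 40 mGy/h group and 0.229, 0.0481, 0.200 and 0.0310% in the 100 mGy/h group. All 4 libraries at 0.4 mGy/h were thus high, those at 1 mGy/h were split into 2 near the control level and 2 far above it, a single library was high at 40 mGy/h and none at 100 mGy/h. The low control level was part of the choice of members and is a description. Over the 24 exposed day 4 libraries the highest share was 97.5 times the lowest.

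On day 8 the shares were higher and closer together. They were 4.30, 2.92, 6.36 and 4.85% in the 0.4 mGy/h group, 5.98, 4.76, 3.39 and 4.49% in the 1 mGy/h group and 5.21, 1.96, 5.54 and 3.02% in the 4 mGy/h group. They were 2.52, 4.82, 2.44 and 5.02% in the 10 mGy/h group, 1.40, 5.83, 3.18 and 1.88% in the 40 mGy/h group and 4.97, 6.35, 2.62 and 3.41% in the 100 mGy/h group. Each of these groups overlapped the day 8 controls, and the highest exposed share was 4.54 times the lowest. At every dose rate, all 4 day 8 libraries lay above all 4 day 4 libraries.

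**Figure D1:**
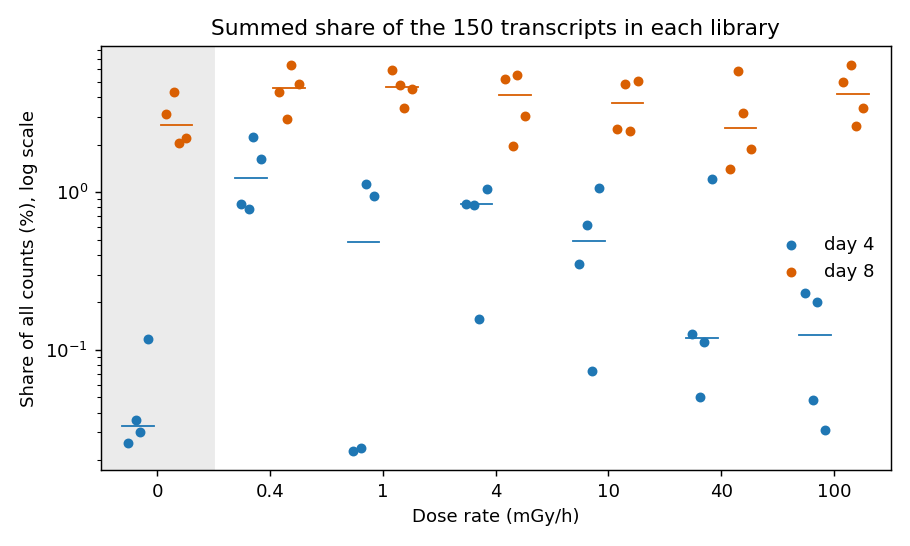
Share of all counts taken by the 150 members (%, log scale) by dose rate (mGy/h), with a point per library, day 4 in blue and day 8 in orange, and a bar at each group's median (n = 4). The grey band marks the 0 mGy/h libraries that chose the members. Exposed day 4 libraries spread from 0.0228% to 2.23%, and exposed day 8 libraries from 1.40% to 6.36%.

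The median L over members in a library gave the same picture without weight on the most abundant transcripts. It ran from 0.02 to 5.64 in the 28 day 4 libraries, with a day 8 range of 4.77 to 7.61 over as many libraries, and 5 day 4 libraries were at or above the lowest day 8 library. The widest gap between neighbouring day 4 libraries was 0.99, from 2.05 to 3.04. Above it lay 13 libraries, of which the groups from 0.4 to 40 mGy/h held 4, 2, 3, 3 and 1 in rising order of dose rate. None of the 4 controls and none of the 4 libraries at 100 mGy/h lay above it. For the controls this follows in part from the choice of members. A day 4 library had 47 to 142 members at or above 1 CPM, and a day 8 library 132 to 150. Across the 24 exposed day 4 libraries the median L of the members followed the first principal component of all other tested transcripts with an absolute r of 0.894, a component that held 29.5% of their variance. On day 8 that r was 0.604 (30.2% of the variance, n = 24 libraries). These libraries share their depth and their dose rates, so the correlations are descriptive.

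Library totals differed with dose rate on day 4. The 7 exposed day 4 libraries in the class of larger totals were all 4 of the 10 mGy/h group, 2 of the 40 mGy/h group and 1 of the 100 mGy/h group. They had a median L over members from 0.61 to 3.81, with a median of 1.39, and the 17 in the smaller class ran from 0.02 to 5.64 with a median of 4.14. The smaller class alone thus spanned the whole range. Because no library at 0.4, 1 or 4 mGy/h and every library at 10 mGy/h was in the larger class, class and dose rate cannot be told apart in full.

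**Figure D2:**
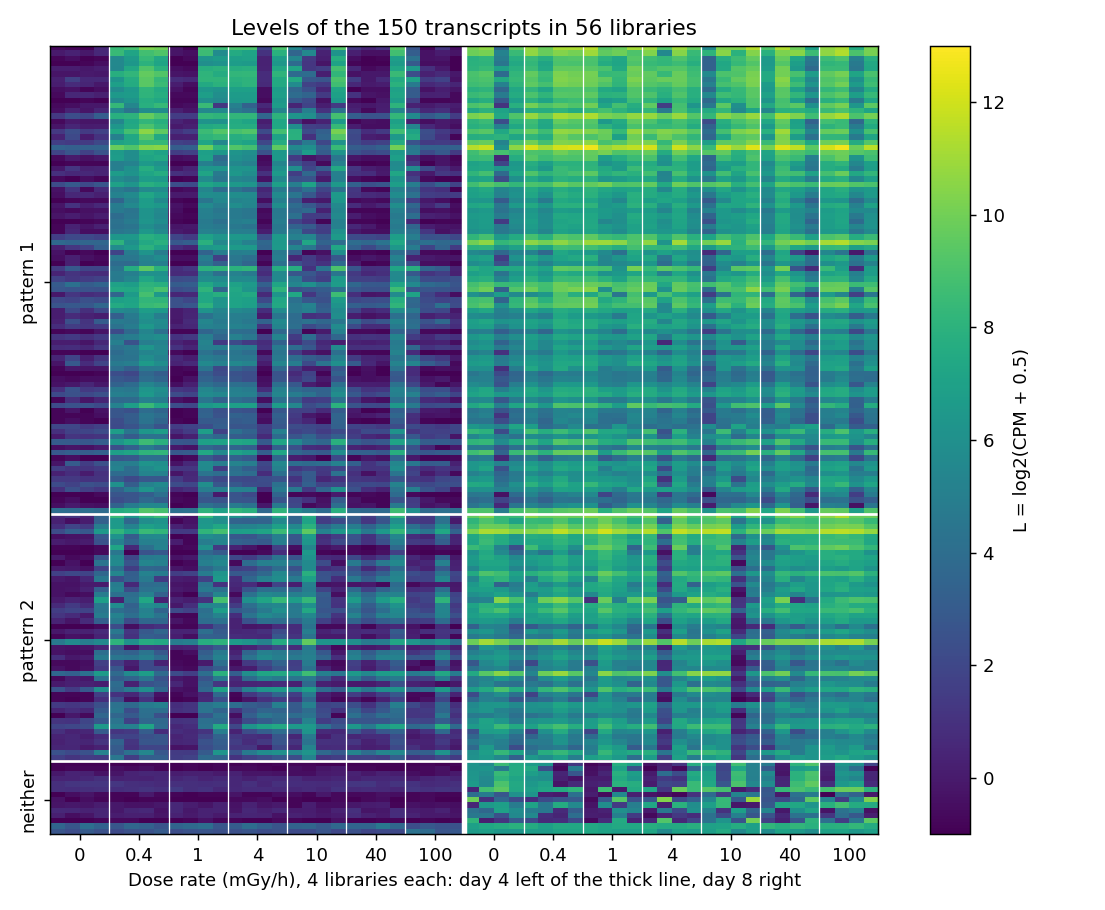
L = log2(CPM + 0.5) of the 150 members (rows) in all 56 libraries (columns), 4 libraries per dose rate, with day 4 left of the thick line and day 8 right of it. Rows are grouped by the patterns described below (89, 47 and 14 members). On day 4 whole blocks of members are high or low together in single libraries. On day 8 most cells are high, but the bottom group is mixed and the second pattern is low in single libraries. Its median L is 1.14 in replicate 3 at 10 mGy/h and 2.41 in replicate 2 at 4 mGy/h.

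The age difference was then tested in exposed animals, whose libraries entered the choice of members through the minimum mean level but not through A. Day 8 was compared with day 4 at each exposed dose rate with edgeR's quasi-likelihood test over 9540 transcripts, and a transcript was called at a Benjamini-Hochberg adjusted p under 0.05. All 150 members were tested, all 150 had a positive log2 fold change at each of the 6 dose rates, and none was called lower on day 8 by edgeR or DESeq2. As differences of mean L, all were above 0 except that of XM_032920755.1 at 40 mGy/h (-0.81). At 0.4 mGy/h 58 members (38.7%) were called higher on day 8, where 26.6% of all tested transcripts were, and the median log2 fold change of the members was 2.29. At 1 mGy/h 128 (85.3%) were called against 28.4% of all tested, with a median of 3.63. At 4 mGy/h 79 (52.7%) were called against 26.2%, with a median of 2.85. In these fits the share called among members was thus above the share among all transcripts. The size of this excess at 0.4 mGy/h depended on single libraries. Without the second day 4 library 39 of 150 members were called there, and without the third day 8 library 44. All transcripts called in either direction then numbered 4764 and 4555, against 5145 with every library. The order of the groups depended on the fit: with the 8 libraries of a dose rate fitted alone, edgeR called 126 of 147 members at 0.4 mGy/h, 70 of 144 in the 1 mGy/h group and 77 of 147 in the 4 mGy/h group, against 26.5%, 26.8% and 25.5% of all tested transcripts.

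The fits at the higher dose rates gave the following. At 10 mGy/h 102 members (68.0%) were called higher against 25.8% of all tested, with a median log2 fold change of 3.15. At 40 mGy/h 109 (72.7%) were called against 26.7%, with a median of 3.60. At 100 mGy/h 142 (94.7%) were called against 27.7%, with a median of 5.73. The median over all tested transcripts lay between -0.04 and 0.01 at the 6 dose rates. With the 8 libraries of a dose rate fitted alone, 60 of 148 members were called at 10 mGy/h, 68 of 146 in the 40 mGy/h group and 135 of 146 in the 100 mGy/h group, against 21.5%, 22.7% and 27.3% of all tested transcripts. Leaving out the third day 4 library at 10 mGy/h took the 102 members to 64, and all transcripts called in either direction from 4969 to 4522. At 40 mGy/h the count was 134 without the fourth day 4 library, with a median log2 fold change of 6.26, and 74 without the second day 8 library. All transcripts called in either direction then numbered 4810 and 4504, against 5017 with every library. On library totals in place of TMM factors the median of all tested transcripts moved to between -0.45 and -0.35, and the share of calls that were higher on day 8 fell from between 47.7% and 50.8% to between 13.0% and 20.1%. The members called higher were then 50, 119, 71, 91 and 100 in the order 0.4, 1, 4, 10 and 40 mGy/h, where 8.32%, 10.4%, 9.98%, 10.4% and 9.66% of all tested transcripts were. At 100 mGy/h they were 136, where 1321 of the 9540 tested transcripts were called higher. Members with 3 or fewer day 4 counts in a group have fitted fold changes that depend on the prior count, and ratios or bounds from the counts are given further on for these members.

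The same comparison without a model counted the members whose 4 day 8 libraries all lay above the 4 day 4 libraries of their dose rate. In the order 0.4, 1 and 4 mGy/h there were 81, 106 and 67 such members, where 6.85%, 7.75% and 7.82% of all tested transcripts did the same. In the order 10, 40 and 100 mGy/h there were 40, 53 and 127, against 6.18%, 5.55% and 11.3%. Over the 6 dose rates, 43 members were called higher at all 6, 34 at 5, 24 at 4, 23 at 3, 7 at 2 and 11 at 1, and 8 members were called at none. Of all tested transcripts 14.5% were called higher at all 6 and 59.1% at none.

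**Figure D3:**
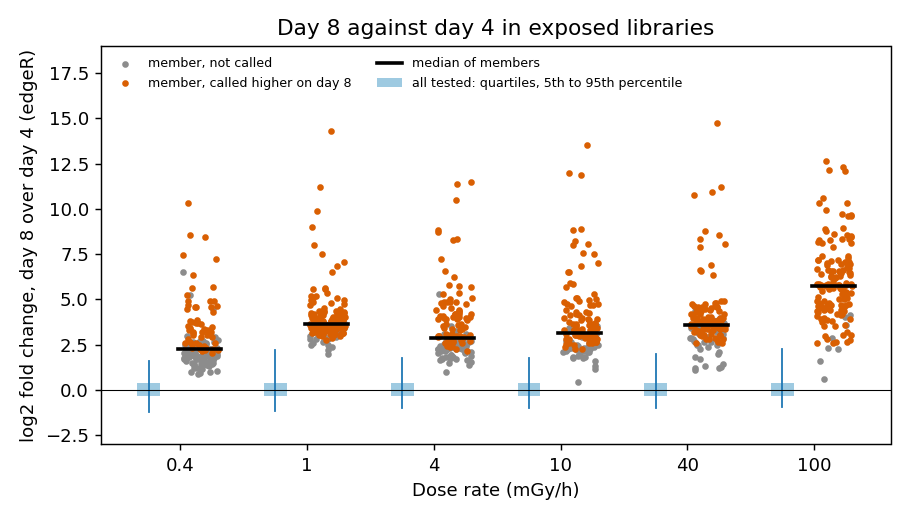
log2 fold change of day 8 over day 4 (edgeR) at each exposed dose rate (mGy/h, 4 libraries per day). Each point is a member, orange where called higher on day 8 and grey where not called, the black bar is the members' median, and the blue box and line give the quartiles and the 5th to 95th percentile of all 9540 tested transcripts. The members' median is 2.29 at 0.4 mGy/h and 5.73 at 100 mGy/h, and no member lies below 0.

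Of the 6 members with the highest A, 5 were low on day 4 in some dose-rate groups and not in others, while XM_032923604.1 was near 0 in every day 4 group and is described further on. XM_032920626.1 (LOC116915470), with the highest A of 9.01, had 0.148, 0.0746, 0 and 0.954 CPM in the day 4 controls and 1153, 1576, 12.8 and 794 CPM in the day 8 controls. On day 4 it had 341, 465, 1263 and 996 CPM in the 0.4 mGy/h group, 1.93, 0.846, 1.49 and 674 CPM in the 40 mGy/h group and 6.22, 0.0740, 1.72 and 0.220 CPM in the 100 mGy/h group. At 0.4 mGy/h every day 4 library was thus far above every day 4 control, while at 40 mGy/h only the fourth library was. The rule chose this member as low in those controls, so the contrast with them is a description. On day 8 it had 1865, 897, 2299.8 and 2409 CPM in the 0.4 mGy/h group and 1606, 2339.7, 198 and 1165 CPM in the 100 mGy/h group. Its log2 fold change from day 4 to day 8 was 1.70 (SE 1.66, edgeR adjusted p = 0.398) at 0.4 mGy/h, where the groups overlapped, and 9.72 (SE 2.37, adjusted p = 0.000664) at 100 mGy/h, where they did not.

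In the other 4 of these 5 members, every day 4 library at 100 mGy/h lay below every one at 0.4 mGy/h. XM_032922519.1 (LOC116917149) had 347, 144, 427 and 561 CPM in the 0.4 mGy/h group and 8.54, 0.296, 0.573 and 0.367 CPM in the 100 mGy/h group on day 4, and its log2 change to day 8 at 100 mGy/h was 9.62 (SE 2.21, edgeR adjusted p = 0.000346). XM_032920736.1 had 362, 71.9, 248 and 377 CPM in the 0.4 mGy/h group and 3.67, 2.15, 20.5 and 1.18 CPM in the 100 mGy/h group on day 4, and it changed by 8.17 (SE 1.77, adjusted p = 0.000166) at 100 mGy/h. XM_032920631.1 and XM_032920627.1 followed each other with r = 0.997 over the 48 exposed libraries, the closest match that either had among all tested transcripts. XM_032920631.1 had 18.7, 0.296, 0.358 and 0 CPM on day 4 and 382, 535, 33.7 and 225 CPM on day 8 at 100 mGy/h, a log2 change of 6.31 (SE 2.07, edgeR adjusted p = 0.00924) that was 10.73 without the first day 4 library. XM_032920627.1 had 7.27, 0.222, 0.215 and 0 CPM and 282, 320.2, 26.7 and 173 CPM in the same libraries, a change of 7.08 (SE 2.09, adjusted p = 0.00411) that was 10.73 without that library. For both, the first day 4 library stood above the other 3, and the third day 8 library was the lowest of its day.

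The most abundant members over the exposed libraries were XM_032940754.1 (mean 1780 CPM), XM_032920763.1 (1144 CPM), XM_032934975.1 (869 CPM), XM_032920626.1 (855 CPM), XM_032920657.1 (LOC116915500, 770.3 CPM) and XM_032934054.1 (669 CPM). These means are not divided by transcript length, so they do not rank the transcripts by molecules. XM_032940754.1 had 10.3, 8.81, 9.76 and 9.91 CPM in the day 4 controls, 845, 574, 1312 and 1475 CPM in the 0.4 mGy/h group, 8.12, 9.64, 963 and 259 CPM in the 1 mGy/h group and 23.2, 9.70, 9.75 and 9.84 CPM in the 100 mGy/h group. These day 4 libraries lay either near the control level or far above it, with the first library at 100 mGy/h in between. Its low control level was part of the choice of this member. On day 8 it had 4726, 2250.2, 4253 and 4705 CPM in the 0.4 mGy/h group and 4231, 6710.0, 926 and 2993 CPM in the 100 mGy/h group. It was not called at 0.4 mGy/h (log2 change 2.33, SE 1.28, edgeR adjusted p = 0.122) and was called at 100 mGy/h (8.53, SE 1.70, adjusted p = 5.64e-05).

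XM_032920763.1 had 301, 128, 359.5 and 295 CPM on day 4 and 1329, 1723, 3249.6 and 1768 CPM on day 8 at 0.4 mGy/h, a log2 change of 3.29 (SE 1.07, edgeR adjusted p = 0.00975). XM_032934975.1 had 81.7, 40.1, 76.6 and 17.6 CPM on day 4 and 2323, 2572, 2513 and 1101 CPM on day 8 at 100 mGy/h, a log2 change of 5.68 (SE 0.96, adjusted p = 5.35e-06). Neither transcript's groups overlapped at the dose rate given, and both were called at all 6 dose rates. XM_032934054.1 was called at all 6 as well, with log2 changes from 3.19 at 0.4 mGy/h to 7.40 (SE 1.23, edgeR adjusted p = 3.84e-06) at 100 mGy/h, where it had 13.9, 17.2, 13.1 and 12.7 CPM on day 4 and 2225, 2670.2, 1337 and 1110.0 CPM on day 8. XM_032920657.1 was called at 5 dose rates and not at 0.4 mGy/h (2.29, SE 1.22, adjusted p = 0.11).

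**Figure D4:**
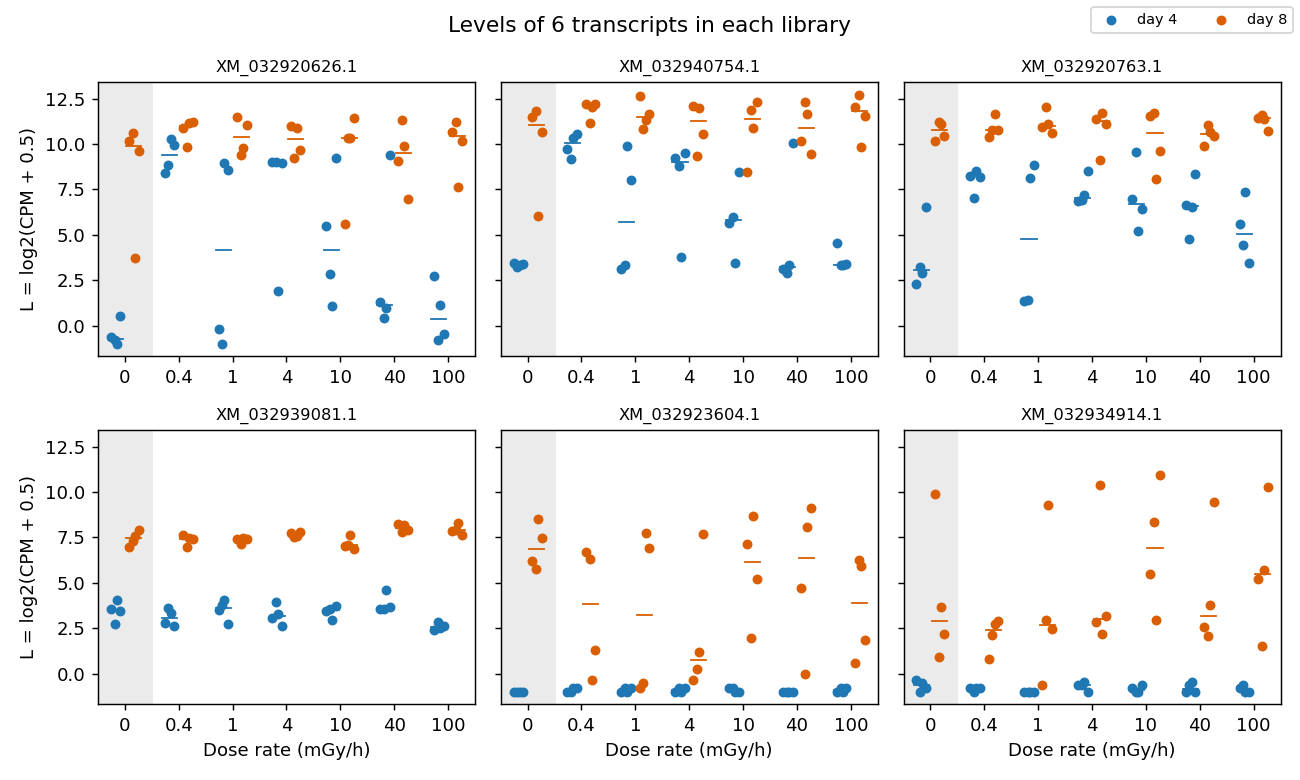
L = log2(CPM + 0.5) of 6 members by dose rate (mGy/h), with a point per library, day 4 in blue, day 8 in orange, and a bar at each group's median (n = 4). The grey band marks the controls that chose the members. XM_032939081.1 keeps both days apart in narrow bands, XM_032920626.1 is high at 0.4 mGy/h and low at 100 mGy/h on day 4, and XM_032923604.1 and XM_032934914.1 lie near the floor in all 28 day 4 libraries.

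A few members rose as a narrow band. XM_032939081.1 (LOC116931448) had the lowest pooled SD of L within exposed day 8 groups of all members, 0.25, and 0.46 on day 4. At 100 mGy/h it had 4.72, 6.74, 5.30 and 5.58 CPM on day 4 and 231, 241, 312 and 195 CPM on day 8, a log2 change of 5.81 (SE 0.32, edgeR adjusted p = 3.73e-17), and its changes at the other dose rates ran from 4.16 to 4.82. XM_032926442.1 (LOC116920271), the last member inside the limit, had 3.84, 5.03, 5.24 and 7.74 CPM on day 4 and 112, 107, 136 and 145 CPM on day 8 at 0.4 mGy/h, a log2 change of 4.92 (SE 0.41, adjusted p = 2.42e-12). At 100 mGy/h its day 4 values were 18.6, 14.1, 5.88 and 6.61 CPM, of which the first 2 were above every other day 4 library, and its log2 change was 3.74 (SE 0.39, adjusted p = 3.12e-10). Both were called at all 6 dose rates, and in both the days did not overlap at any dose rate.

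The 8 members that were called at no exposed dose rate were XM_032920640.1, XM_032920642.1, XM_032920643.1, XM_032920647.1, XM_032920755.1, XM_032926498.1, XM_032926875.1 and XM_032934873.1. They were not low in A, which ran from 4.25 to 7.74 among them. XM_032920643.1 (LOC116915486) had 139.5, 3.33, 1.29 and 0.220 CPM on day 4 and 103, 41.7, 2.70 and 23.0 CPM on day 8 at 100 mGy/h. The groups overlapped, because the first day 4 library was higher than every day 8 library, and the log2 change was 0.62 (SE 1.75, edgeR adjusted p = 0.782). It was -0.32 without the first day 8 library and 5.11 without the first day 4 library, and was not called in either fit (adjusted p 0.0555 to 0.934 over the 8 fits that left out a library).

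XM_032934873.1 (LOC116927832) was alike at 100 mGy/h, with 221, 11.5, 7.52 and 0.881 CPM on day 4, 341, 116, 1.22 and 109.8 CPM on day 8 and a log2 change of 1.61 (SE 1.78, edgeR adjusted p = 0.451; 4.80 without the first day 4 library, where it was not called). XM_032926498.1 (LOC116920302) had 13.0, 15.8, 216 and 14.0 CPM on day 4 and 237, 265, 189 and 251 CPM on day 8, and a change of 2.26 (SE 1.25, adjusted p = 0.119). There the third day 4 library lay among the day 8 values, and without it the change was 4.40 (adjusted p = 0.0117).

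The exposed replicates of one group differed far more in members than in other transcripts. The SD of L within exposed groups, pooled over the 6 groups of a day, had a median over members of 1.85 on day 4 and 1.42 on day 8. Over the other 9411 tested transcripts that median was 0.119 on day 4 and 0.209 on day 8. The SD exceeded 1 in 134 members on day 4 and in 121 on day 8, against 1.93% and 5.75% of the other transcripts, and 109 members had the larger SD on day 4. The members were chosen for a large difference between control groups and not for their spread, but both quantities come from the same transcripts, so this is a description. On day 8 the largest SDs were those of XM_032940201.1 (3.69), XM_032923604.1 (3.68) and XM_032920755.1 (3.58).

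Replicates differed by moving many members together. The median pairwise r of L between members was 0.604 over the 24 exposed day 4 libraries, against 0.0293 between other tested transcripts, and 0.396 against 0.0824 on day 8. After the group means were taken out, the medians for members were 0.542 and 0.367, so the shared movement was also present between replicates of one dose rate. Average-linkage grouping of the members on day 4, cut at r = 0.5, gave a first pattern of 89 members, a second of 47, and 14 members in neither. Within the first pattern the median pairwise r on day 4 was 0.930, within the second 0.763 and between them 0.382. On day 8, which the grouping did not use, these values were 0.830, 0.855 and 0.0231 over 24 exposed libraries.

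Members of the first pattern were high in more of the low dose-rate libraries of day 4. In replicates 1 to 4 the median L of its 89 members was 5.01, 5.06, 6.60 and 6.10 in the 0.4 mGy/h group and 0.03, 0.22, 5.71 and 4.99 in the 1 mGy/h group. It was 5.25, 5.15, 0.69 and 5.52 in the 4 mGy/h group and 3.54, 2.25, 1.52 and 5.59 in the 10 mGy/h group. It was 0.94, 0.09, 0.19 and 5.62 in the 40 mGy/h group, 3.07, 0.69, 0.90 and -0.09 in the 100 mGy/h group and -0.08, 0.82, 0.27 and 0.54 in the controls. All 4 libraries at 0.4 mGy/h lay above every library at 100 mGy/h and every control, and at 1 mGy/h the first 2 libraries were at the control level. Members were chosen as low in the day 4 controls, so the place of the controls is no result. XM_032920626.1, XM_032940754.1 and XM_032920657.1 belong to this pattern.

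Members of the second pattern followed another order of libraries. The median L of its 47 members on day 4 was 4.28, 2.63, 4.36 and 3.60 in the 0.4 mGy/h group, 0.03, -0.33, 3.82 and 4.78 in the 1 mGy/h group and 0.83, 2.67, 3.53 and 4.34 in the 4 mGy/h group. It was 3.03, 5.35, 1.69 and 0.88 in the 10 mGy/h group, 2.96, 1.70, 2.80 and 4.73 in the 40 mGy/h group, 1.20, 1.28, 3.80 and 0.92 in the 100 mGy/h group and 0.12, 0.13, 0.18 and 3.02 in the controls. The fourth control, the second library at 10 mGy/h and the third at 100 mGy/h were thus high in the second pattern but not, or less so, in the first. The fourth library at 10 mGy/h and the first at 4 mGy/h showed the opposite. XM_032920763.1, XM_032934975.1 and XM_032920736.1 belong to the second pattern.

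On day 8 the 2 patterns were lowest in different libraries. Replicate 1 at 40 mGy/h was rather low in both, with a median L of 5.76 in the first and 4.92 in the second. The first was lowest at 10 mGy/h in replicate 1 (median L 4.19), at 0 mGy/h in replicate 3 (4.58) and at 40 mGy/h in replicate 4 (4.60), where the second stood at 7.32, 6.50 and 6.24. The second was lowest at 10 mGy/h in replicate 3 (1.14) and at 4 mGy/h in replicate 2 (2.41), where the first stood at 6.88 and 6.21. The r between the pattern medians was 0.464 over the exposed libraries of day 4 and 0.0335 over those of day 8. XM_032940754.1 (first pattern) had 354, 3701, 1879.7 and 5149 CPM at 10 mGy/h on day 8, lowest in replicate 1, and XM_032920763.1 (second pattern) had 2999, 3346, 269 and 784 CPM, lowest in replicate 3.

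**Figure D5:**
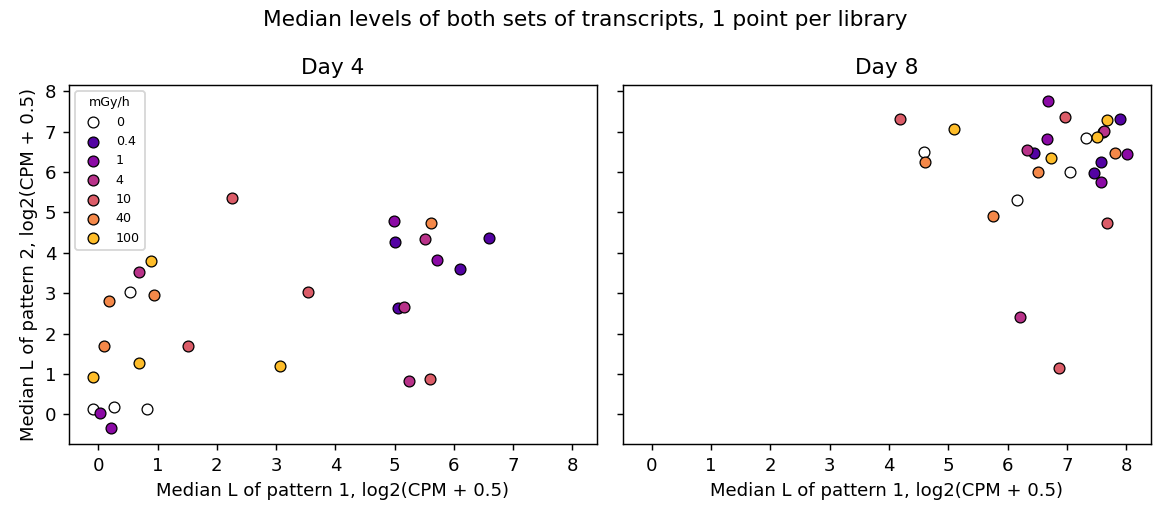
Median L of the 89 members of the first pattern (horizontal) against that of the 47 members of the second (vertical), log2(CPM + 0.5), with a point per library, coloured by dose rate (mGy/h) and white for the controls, day 4 left and day 8 right. On day 4 the points fill both axes (r = 0.464 over the 24 exposed libraries). On day 8 the lowest libraries of one pattern are not the lowest of the other, and the medians are nearly unrelated (r = 0.0335).

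The patterns also differed in how often their members were called higher on day 8, a description because the grouping used the day 4 libraries. In the order 0.4, 1, 4, 10, 40 and 100 mGy/h, edgeR called 14, 69, 33, 59, 65 and 83 of the 89 members of the first pattern. It called 32, 45, 35, 29, 30 and 45 of the 47 members of the second. Of all tested transcripts it called 26.6%, 28.4%, 26.2%, 25.8%, 26.7% and 27.7% higher in the same order. At 0.4 mGy/h the first pattern was thus called less often than tested transcripts at large. At 0.4 mGy/h the median log2 change was 1.86 in the first and 3.06 in the second, and at 100 mGy/h it was 5.76 and 5.41. Of the 43 members called at all 6 dose rates, 14 were in the first pattern, 20 in the second and 9 in neither. Of all tested transcripts, 14.5% were called higher at all 6.

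The 14 members in neither pattern included transcripts that stayed under 1 CPM on day 4 at every dose rate, here called silent although they had some counts. In all, 7 members were under 1 CPM in each of the 28 day 4 libraries, as were 222 of 9561 tested transcripts. XM_032923604.1 (LOC116917979) had a summed count of 10 over the 28 day 4 libraries. On day 8 it had 74.5, 54.1, 369 and 179 CPM in the controls, 0.0692, 0.211, 213 and 122 CPM in the 1 mGy/h group and 0.280, 0.685, 1.81 and 204 CPM in the 4 mGy/h group. The controls helped to choose it, so their level is no result. At 4 mGy/h a single library was high and the other 3 were at or under 1.81 CPM.

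XM_032920836.1, XM_032923289.1 and XM_032943783.1 moved with XM_032923604.1 on day 8, with a lowest pairwise r of 0.731 and a median of 0.868 among the 4 transcripts over the 24 exposed libraries. Their summed level was 243, 219, 747 and 627 CPM in the day 8 controls. It was 468, 154, 1.78 and 54.2 CPM in the 0.4 mGy/h group, 1.18, 1.69, 625 and 237 CPM in the 1 mGy/h group and 1.12, 17.7, 6.34 and 404 CPM in the 4 mGy/h group. It was 350.4, 12.7, 1007 and 131 CPM in the 10 mGy/h group, 89.6, 1.75, 647 and 1243 CPM in the 40 mGy/h group and 2.38, 227, 152 and 4.43 CPM in the 100 mGy/h group. The controls chose these members by their day 8 level and are given as a description. Every exposed dose rate had at least 1 library at or under 12.7 CPM. XM_032940201.1, which was between 0.893 and 1.90 CPM on day 4, followed XM_032923604.1 with r = 0.979 over the 48 exposed libraries.

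A second set on day 8 was XM_032934914.1 (LOC116927872) and XM_032934915.1 (LOC116927873), both on linkage group LG7, with r = 0.971 over the 24 exposed day 8 libraries. Their symbols are consecutive, the handling of reads shared between like sequences is not stated, and so their separate levels are uncertain. XM_032934914.1 had 955, 1.42, 12.2 and 3.97 CPM in the day 8 controls, 0.138, 7.12, 629 and 4.92 CPM in the 1 mGy/h group, 44, 329, 7.10 and 1931 CPM in the 10 mGy/h group and 36.9, 2.34, 51.4 and 1257 CPM in the 100 mGy/h group. A single library held most of each group's count. XM_032934915.1 was highest in the same library of each of these groups, with 287, 0.640, 1.69 and 6.98 CPM in the controls and 17.1, 2.34, 21.4 and 718 CPM at 100 mGy/h.

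For these transcripts the day 4 counts of some groups were so few that they limited how precisely the rise could be counted. Replicates also differed widely on day 8. The SD of L within exposed day 8 groups was 3.41 for XM_032934914.1, 3.29 for XM_032934915.1 and 3.68 for XM_032923604.1. At 1 mGy/h XM_032934914.1 had no count on day 4 and 9360 on day 8, mostly from the third library. The pooled level is at least 2907-fold higher against a floor of 3 counts over the group. At 0.4 mGy/h its ratio was 81.3 (95% counting interval 27.8 to 394, 3 counts on day 4). Neither it nor XM_032934915.1 was called there (edgeR adjusted p 0.0531 and 0.144), while both were called at every other exposed dose rate. At 40 mGy/h XM_032923604.1 had no count on day 4 and 12615 on day 8, at least 3932-fold higher by the same floor. At 100 mGy/h the ratio of pooled levels was 6063 for XM_032934914.1 (95% counting interval 2075 to 29400, 3 counts on day 4), 5121 for XM_032934915.1 (1418 to 42283, 2 counts) and 970.5 for XM_032923604.1 (269 to 8013, 2 counts). XM_032921647.1 (LOC116916398), a member of the second pattern with 0, 87.9, 0.0715 and 0 CPM at 10 mGy/h on day 4, had 2 counts on day 4 at 100 mGy/h and a ratio of 4441 (1229 to 36669). XM_032939789.1 had 2 counts on day 4 at 100 mGy/h and a ratio of 765 (212 to 6318). At 1 mGy/h the ratio was 942.5 (261 to 7783, 2 counts) for XM_032920836.1 and 234 (80.1 to 1136, 3 counts) for XM_032943783.1. These intervals and floors cover counting error only, and single day 8 libraries carried most of the counts of the LG7 transcripts. In edgeR the age difference at 100 mGy/h was called for XM_032934914.1, XM_032934915.1, XM_032923604.1 and XM_032921647.1 (adjusted p 0.000547, 0.000757, 0.00433 and 0.000117).

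XM_032920755.1 (LOC116915627), in the second pattern and never called, varied widely on both days. It had 0.665, 19.0, 163 and 0.745 CPM in the 0.4 mGy/h group and 103, 18.9, 100.5 and 207 CPM in the 40 mGy/h group on day 4, and 96.2, 925, 1433 and 612 CPM and 122, 1143, 1.27 and 17.3 CPM on day 8. The days overlapped at both dose rates, and at 40 mGy/h the day 8 libraries reached both above and below all 4 of day 4. There the fitted log2 change was 2.10 (SE 2.08, edgeR adjusted p = 0.403), while the difference of mean L was -0.81. Its log2 change at 100 mGy/h was 2.90 (SE 2.14, edgeR adjusted p = 0.25), and without the third day 4 library it was 7.38 (adjusted p = 0.0308).

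The dose rate was examined next among exposed animals, with the controls left out because they had been chosen as low on day 4. The slope of the log2 level on the rank of the dose rate, from 1 at 0.4 mGy/h to 6 at 100 mGy/h, was fitted to the 24 exposed day 4 libraries. Of the 144 members tested among 9341 transcripts, edgeR called 0. An unadjusted p under 0.05 was found for 90 members and for 1568 of all 9341 transcripts. Over all tested transcripts 0.996% were called rising and 0.728% falling, 1.72% in all. With the replicate number as a block, edgeR called 8 members, all falling, where it called 0.814% of all tested transcripts falling. The slope was negative in 126 members and positive in 18, with a median of -0.54 per step, where the median of all tested was 0.00. DESeq2 called 22 members falling on the same libraries, where it called 2.19% of all tested transcripts falling.

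The day 4 count rested on the fourth library at 40 mGy/h, in which the median L of the members was 5.13 and that of the other 3 replicates 1.28, 0.61 and 0.71. Without it edgeR called 42 members, all falling, and 290 transcripts in all, and the median slope of the members was -0.63. Leaving out the first or second library at 1 mGy/h or the second at 10 mGy/h gave 1, 2 and 3 members, and each of the other 20 fits gave 0. In the class of smaller library totals alone, which holds no library at 10 mGy/h, edgeR called 0 of 145 members, and their median slope was -0.45. There 28 members had an unadjusted p under 0.05, as had 1229 of all 9421 transcripts tested.

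The members with the smallest p in the day 4 slope were XM_032931095.1 (LOC116924588), XM_032942707.1, XM_032940973.1 (LOC116933062) and XM_032928057.1 (LOC116921718), none of them called. XM_032931095.1 had 66.1, 8.36, 35.3 and 49.8 CPM in the 0.4 mGy/h group, 2.91, 9.31, 3.22 and 3.24 CPM in the 10 mGy/h group and 4.35, 3.63, 4.80 and 4.63 CPM in the 100 mGy/h group on day 4. All 4 libraries at 0.4 mGy/h were above all 4 at 100 mGy/h, by a margin that was small in the second. Its slope was -0.53 per step (SE 0.15, edgeR adjusted p = 0.0737), and without the fourth library at 40 mGy/h it was -0.68 (adjusted p = 0.00328). XM_032928057.1 had 22.7, 30.3, 50.5 and 60.2 CPM in the 0.4 mGy/h group and 2.17, 1.04, 2.15 and 1.47 CPM in the 100 mGy/h group. Its slope was -0.65 (SE 0.19, adjusted p = 0.0857). XM_032940973.1 had 111, 21.5, 85.9 and 115 CPM in the 0.4 mGy/h group and 1.80, 2.81, 2.65 and 3.31 CPM in the 100 mGy/h group, and a slope of -0.71 (SE 0.21, adjusted p = 0.0819). For both, the libraries at 0.4 mGy/h lay above those at 100 mGy/h without overlap.

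On day 8 the slope was negative in 121 members and positive in 29. The lower quartile of the slope was -0.14 per step in members and -0.03 in all tested transcripts. Members also had the larger spread between replicates (median SD of L 1.42 against 0.209 in other transcripts). Of the 150 members tested among 9339 transcripts, edgeR called 1, which is rising, against 9.85% of all tested transcripts in either direction and 5.31% rising. No other member had an unadjusted p under 0.05, against 2425 of all 9339 transcripts, and the median slope of the members was -0.08 per step. The member called was XM_032939081.1, with 199, 123, 175 and 168 CPM in the 0.4 mGy/h group, 131, 137, 201 and 118 CPM in the 10 mGy/h group, 302, 222, 294 and 237 CPM in the 40 mGy/h group and 231, 241, 312 and 195 CPM in the 100 mGy/h group. The libraries at 40 mGy/h were all above those at 0.4 mGy/h, while those at 10 mGy/h overlapped the latter. Its slope was 0.12 per step (SE 0.04, edgeR adjusted p = 0.0405). Of the 24 fits that left out a library, 10 did not call it.

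The next smallest p-values on day 8 belonged to members that were not called. XM_032927607.1 (LOC116921342) had 53.4, 32.5, 170.3 and 101 CPM in the 0.4 mGy/h group and 54.0, 40.8, 8.38 and 23.7 CPM in the 100 mGy/h group, with a slope of -0.30 (SE 0.15, edgeR adjusted p = 0.207). XM_032927593.1 (LOC116921327) had a slope of -0.16 (SE 0.09, adjusted p = 0.248) and XM_032920643.1 one of -0.41 (SE 0.25, adjusted p = 0.32). The day 8 libraries of XM_032927607.1 at these dose rates overlapped.

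A single fit to the 48 exposed libraries held an interaction of dose rate and day, and testing it asks whether the age difference changed with dose rate. Among 9540 transcripts 9.19% were called. Of the 150 members, 132 had a difference (day 8 minus day 4) above 0, with a median of 0.42 per step. An unadjusted p under 0.05 was found for 42 members and for 2242 of all 9540 transcripts. Among the members edgeR called 1, XM_032940370.1. Without the fourth day 4 library at 40 mGy/h it called 43 members and 908 transcripts in all. Without the first day 4 library at 1 mGy/h it called 3, without the second day 4 library at 10 mGy/h it called 4, and the remaining fits called 0 or 1.

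XM_032940370.1 had 148, 1.04, 16.7 and 36.6 CPM in the 0.4 mGy/h group, 0.752, 0.371, 0.0744 and 2.61 CPM in the 4 mGy/h group and 0.150, 0.0740, 0.287 and 0.220 CPM in the 100 mGy/h group on day 4. On day 8 it had 398, 121, 205 and 59.4 CPM in the 0.4 mGy/h group, 384, 1.51, 888 and 29.3 CPM in the 4 mGy/h group and 757, 979, 529.9 and 313 CPM in the 100 mGy/h group. On day 4 it was over 1 CPM in all 4 libraries at 0.4 mGy/h and in none at 100 mGy/h, and on day 8 it was high at both. Its slope differed by 1.20 per step (SE 0.40, edgeR adjusted p = 0.04998). Of the 48 fits that left out a library, 33 did not call it. XM_032934054.1 (0.58 per step, SE 0.21, adjusted p = 0.0689), XM_032939188.1 (LOC116931591, 0.72, SE 0.26, adjusted p = 0.0776) and XM_032942707.1 (0.52, SE 0.19, adjusted p = 0.0845) followed and were not called.

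The position of the members in the annotation was not used to choose them. Of the 108 symbols, 100 lie on one of 10 linkage groups, and 29.0% of these are on LG2, 22.0% on LG10 and 16.0% on LG4. Of the symbols of all tested transcripts, 15.5%, 7.19% and 11.2% are on these linkage groups. LG3 holds 9.33% of the tested symbols and none of the members. For 34 of the 100 placed member symbols an immediately neighbouring gene was also a member, where 1.25% of 6343 placed tested symbols had a member as neighbour. Neighbouring genes can be copies of one another, and their protein sequences were not compared here.

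One run of 6 adjacent genes on LG2 consisted of members only, all of the first pattern. They are LOC116915484 (XM_032920642.1), LOC116915489 (XM_032920647.1), LOC116915486 (XM_032920643.1), LOC116915541 (XM_032920701.1), LOC116915482 (XM_032920640.1) and LOC116915483 (XM_032920641.1), with A from 4.21 to 7.74. Their median pairwise r was 0.979 over the exposed day 4 libraries and 0.943 over those of day 8. The handling of reads shared between like sequences is not stated, so the separate levels of these transcripts are uncertain. XM_032920642.1 ran from 0 to 570.0 CPM in the exposed day 4 libraries, with a median of 69.9 CPM, and its day 8 values from 9.70 to 1029 CPM, with a median of 363 CPM. XM_032920640.1 ran from 0.294 to 684 CPM with a median of 101 CPM on day 4, and from 22.3 to 1486 CPM with a median of 670.1 CPM on day 8. The day 4 and day 8 ranges of both overlapped widely, and 4 of the 6 transcripts are among the 8 members called higher on day 8 at no exposed dose rate. XM_032920701.1, the least abundant of the run on day 4 (median 5.97 CPM), was called at 4 dose rates.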

How the data were processed

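Messenger RNA of whole Daphnia magna was read as 100 bp pairs on a BGISEQ-500, per the labels' protocols. The authors deposited whole-number read counts per transcript record, raw and in one table per day, and these were used. HISAT is named in the submitters' processing notes without a role. How reads were counted, against which build, and how reads matching several transcripts were treated is not given in the sources used here. The unit CPM was computed here from those deposited counts and library totals.

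The members and every list and rule used here were chosen with earlier results of these data known. Counts were fitted in R 4.3.3 with edgeR 4.0.16 (TMM factors, filterByExpr, glmQLFit and glmQLFTest, 2-sided, Benjamini-Hochberg over all transcripts tested, called at an adjusted p under 0.05). Standard errors are the fold change over the square root of F. Age was contrasted in 12 groups of exposed libraries, and a slope per step of dose-rate rank was fitted within a day. The alternatives were DESeq2 1.42.0, RLE factors, library totals, no filter, other sets of libraries, log10 dose rate, an omnibus test, a replicate block and leaving out each library. The named members were those with the highest A, the highest mean, the smallest p-values per test, the smallest and largest age change at 100 mGy/h, the largest day 8 spread, those at the limit and those in a run. XM_032939081.1 as a narrow band, the members called at no dose rate and the sets silent on day 4 were singled out after their values were seen. Comparisons of protein sequences within runs and counts of gene families by description were planned but not run, as the tables used held neither.

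The models were tested on simulated counts of 9540 transcripts. For the age contrast at 100 mGy/h edgeR recovered 91.0% of 200 transcripts changed by 2 on the log2 scale, with 4.23% of calls false. It recovered 90.0% and 88.0% of slopes of 0.3 per step on days 4 and 8, with 8.16% and 2.95% false, and 85.0% of differences of 0.3 between days, with 4.27% false. Transcripts were simulated independently of each other, and the changed ones were drawn from all 9540. Between replicates, members varied more than the other tested transcripts. Median SDs of L were 1.85 against 0.119 on day 4 and 1.42 against 0.209 on day 8. The rates of recovery can therefore not be read as those for members.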

Additional observations from a re-analysis of the deposited data

Results flagged for a closer look

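In 28 groups of 4 libraries (the share of counts and the median L of the members in each of 14 groups), a highest or lowest library was checked for lying far from the other 3, which chance alone would do in about 1 in 20 groups, or 1.4 groups here. It was found in 3. Both measures come from the same libraries, so the 28 checks are not independent and the number by chance is a rough guide. The day 4 controls helped to choose the members and are given as a description. There the members took 0.116% of the counts of the fourth library, against 0.0256%, 0.0300% and 0.0359% in the others. In day 4 libraries at 40 mGy/h they took 1.21% of the fourth, against 0.0501%, 0.112% and 0.127%, and their median L was 5.13 against 0.61, 0.71 and 1.28. The dose-rate slope of XM_032940370.1 differed between days by 1.20 per step on the log2 scale (edgeR interaction, SE 0.40, adjusted p = 0.04998).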

How the results depend on the processing

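Of the 150 members, 135 stayed with a pseudocount of 2, 147 with TMM factors, 149 and 129 with a minimum mean of 1 and 20 CPM, 136 to 147 without each control library, and 119 with the 100 mGy/h libraries in place of the controls. Fitting only the 8 libraries compared moved the members called higher to 126, 70, 60 and 68 in the order 0.4, 1, 10 and 40 mGy/h. The spread was then estimated from those 8 libraries. Leaving out a library gave 39 to 57, 92 to 124, 60 to 88, 64 to 107, 74 to 134 and 127 to 140 members in rising order of dose rate from 0.4 to 100 mGy/h. All transcripts called then numbered 4555 to 5099, 4971 to 5365, 4395 to 4936, 4488 to 5065, 4504 to 4962 and 5091 to 5429. In the day 4 slope the omnibus test called 1 member and DESeq2 22. All transcripts called were 161, by the omnibus test 190, with DESeq2 345 and in the smaller class of totals 71, and without each library 74 to 290 (members 0 to 42). In the day 8 slope 920 were called in all, with DESeq2 1384, on library totals 528 and by the omnibus test 109, and without each library 488 to 1395 (members 0 to 1). In the interaction DESeq2 called 4 members and 1098 of all 9540 transcripts. Of the members, 0 were called on library totals, without a filter and with RLE factors, where 44, 43 and 43 had an unadjusted p under 0.05. In the same order 2006 of 9540, 2385 of 12186 and 2257 of 9540 of all transcripts tested had such a p. All transcripts called in the interaction were 877, on library totals 570 and without each library 635 to 1216 (members 0 to 43). The share of these calls that were higher on day 8 was 42.9%, and 54.2% on library totals. A pseudocount of 2 moved the members' median age difference of L from 5.17 to 4.33 at 0 mGy/h and from 5.14 to 4.26 at 100 mGy/h. Without each library these medians ran from 4.97 to 5.43 in the controls and then, in rising order of dose rate, from 1.68 to 2.17, 3.65 to 4.98, 1.90 to 3.26, 2.50 to 3.60, 3.48 to 4.65 and 4.90 to 5.40. Among the named members refitted in edgeR, the single change of sign was XM_032920643.1 at 100 mGy/h, at -0.32 without the first day 8 library there, the lowest of a range of -0.32 to 5.11 without each library. On the difference of mean L in place of the edgeR fit, XM_032920755.1 was at -0.81 at 40 mGy/h, against 2.10. The cause of these differences was not tested.

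Same-numbered libraries were little alike on average. Deviations from group means had a mean r of 0.031 between them on day 4, -0.019 on day 8 and 0.057 across days. Between libraries of other numbers the mean r was -0.012, 0.005 and -0.015. Of the same-numbered pairs 28 of 60, 26 of 60 and 11 of 24 exceeded 0.1, and on day 4 they ran from -0.64 to 0.76. These values do not settle whether replicates were paired. With the replicate number as a block, edgeR called 8 members in the day 4 slope (all falling, against 0.814% of all tested). In the interaction it called 4 of 150 members, where it called 867 of all 9540 transcripts. In the age contrasts from 0.4 to 100 mGy/h it called 56, 125, 84, 105, 122 and 140 members higher on day 8. Of all 9540 transcripts, 2518, 2648, 2495, 2430, 2536 and 2615 were called higher in the same order.

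At this depth a transcript with no count in a group of 4 is limited to 3 counts over the group. The age change of a transcript with no count in a day 4 group therefore has a bound but no size at that dose rate.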

Other observations

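Apart from the run of 6, member symbols lay near each other in 8 more stretches, in which each member was at most 10 genes from the next. These stretches were picked after the values were seen. Counting the run, 38 of the 100 placed symbols lay in the 9 stretches. The stretches differed in pattern. On LG4 all 5 members of a stretch of 15 genes (among them LOC116921327, XM_032927593.1) were of the first pattern, while on LG6 none of the 4 members of a stretch of 10 genes were. A stretch of 12 genes on LG2 held LOC116917703 (XM_032923289.1), LOC116917979 (XM_032923604.1) and LOC116916398 (XM_032921647.1), the first pair of which were silent on day 4 and followed each other on day 8.

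Some transcripts below the limit behaved like members. Over the 48 exposed libraries, XM_032934054.1 was closest to XM_032928817.1 (r = 0.983), which had rank 168 by A, and XM_032934975.1 to XM_032929854.1 (r = 0.965), which had rank 198. Among the other tested transcripts, 46 had r over 0.9 with the median L of the members on the exposed day 4 libraries and 12 on those of day 8, with 0 and 5 under -0.9 (n = 24 libraries a day). Levels across libraries share depth and dose rate, so these are descriptions.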
